A study of Glycine max with 6 samples.

Results

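Rubisco, the enzyme that fixes CO2 in the Calvin cycle, is built of a large subunit encoded in the plastid and a small subunit encoded by nuclear RbcS genes. Rubisco activase (Rca) is a nuclear-encoded AAA+ ATPase that releases inhibitory sugar phosphates from the active site of Rubisco. In leaves, Rubisco is also the major store of nitrogen, and its breakdown during senescence releases nitrogen for growing seeds. The genes described here were 2 RbcS genes (Glyma.13G046200 and Glyma.19G046800) and 4 Rca genes (Glyma.02G249600, Glyma.11G221000, Glyma.14G067000 and Glyma.18G036400). They were taken by gene identifier, with no threshold on a measured value, but earlier results of these data were known when they were chosen. All 6 were found among the 56044 genes of the count table.

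Transcripts were sequenced from leaves of wild-type soybean plants (cultivar BR16) grown in pots in a greenhouse, at 80 days after germination (DAG) and at 20 DAG, with 3 libraries at each age. The methods of the study place its leaf samples at reproductive stage R7 and vegetative stage V3, whereas the sample labels call both ages vegetative. The disks came from trifoliate leaves at more than one position (the third and the seventh), and which of them was used at each stage is not given in the sources used here. Age, stage and possibly leaf position thus changed together and cannot be told apart. Libraries held 10758425 to 15883253 counts, and the 50 most abundant genes took 41.7% to 54.0% of a library. The identifiers are chromosome-based, and the members lie on chromosomes 2, 11, 13, 14, 18 and 19. The RefSeq gene list of assembly Glycine_max_v4.0 holds 2 RbcS symbols and 5 Rca symbols. None of its 59048 genes carries a Glyma identifier, so no symbol or isoform name was given to a member. The Rca symbol RCA03 is on chromosome 3, where no member lies. Counts, shares and ratios of RbcS and Rca below therefore cover the members only. The large subunit was not analysed here, since the table has 0 rows outside the nuclear chromosomes and scaffolds. The leaf label could not be checked on light-harvesting genes for the same lack of gene descriptions.

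All 6 genes had lower transcript levels at 80 DAG than at 20 DAG. The decrease was 3.89-fold and 4.47-fold for the RbcS genes and 5.16-fold to 16.3-fold for the Rca genes. Every one of the 6 passed the threshold of 0.05 for the p that edgeR's quasi-likelihood F test gave after Benjamini-Hochberg adjustment over 30058 genes. In the same comparison 49.1% of all tested genes were past this threshold, and 26.0% were past it and lower at 80 DAG. The 3 libraries of 80 DAG lay below the 3 libraries of 20 DAG for all 6 genes. The share of all tested genes with such a separation is not given here. In bulk leaf RNA, fewer cells of a type and less RNA per cell cannot be told apart. Levels are given as CPM, counts scaled to the effective size of each library, and they are compared between ages and not between genes, since transcript lengths were not used.

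**Figure D1:**
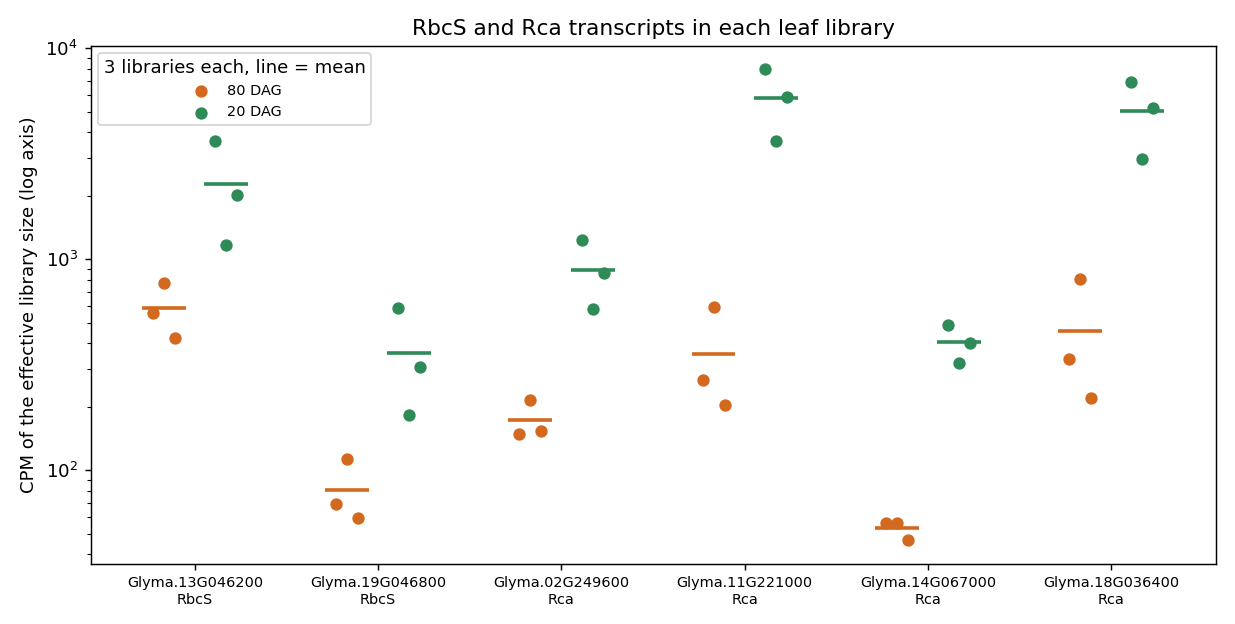
Transcript level of each RbcS and Rca gene (CPM, log axis) in the 3 libraries of 80 DAG (left points of each gene) and the 3 libraries of 20 DAG (right points), with lines for the mean of each age. All points of 80 DAG lie under those of 20 DAG, with the narrowest gap for Glyma.13G046200 (highest 80 DAG library 773 CPM, lowest 20 DAG library 1163 CPM).

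The RbcS gene Glyma.13G046200 encodes a Rubisco small subunit. It had 558, 773 and 421 CPM in the 80 DAG libraries, against 3631, 1163 and 2015 CPM in the 20 DAG libraries (replicates 1, 2 and 3). The lowest 20 DAG library was 1.50 times the highest 80 DAG library, the narrowest gap of the 6 genes. The mean level was 584 ± 178 CPM at 80 DAG and 2270 ± 1254 CPM at 20 DAG (SD, n = 3 each). This is a log2 fold change of −1.96 with a standard error of 0.49 (edgeR, adjusted p = 0.0145). The gene missed the threshold in some fits with 1 library left out. Its adjusted p (edgeR) was 0.0615 without replicate 1 of 80 DAG and 0.0595 without replicate 3 of 80 DAG. Fewer genes were called overall in these fits, 11765 and 11840 against 14758 with all libraries. The log2 fold changes in these fits were −1.90 and −1.74.

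The other RbcS gene, Glyma.19G046800, had 68.8, 113 and 59.2 CPM in the 80 DAG libraries, against 587, 183 and 307 CPM in the 20 DAG libraries. The libraries ranked in the same order as for Glyma.13G046200 at each age. Its mean was 80.3 ± 28.7 CPM at 80 DAG and 359 ± 207 CPM at 20 DAG (SD, n = 3 each). With edgeR it changed by −2.16 on the log2 scale, with a standard error of 0.48 (adjusted p = 0.00849), and the adjusted p stayed at or below 0.0404 whichever library was left out.

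Among the Rca genes, Glyma.11G221000 had the most negative estimate. It had 267, 596 and 203 CPM in the 80 DAG libraries, against 7919, 3636 and 5842 CPM in the 20 DAG libraries. The lowest 20 DAG library was thus 6.10 times the highest 80 DAG library, the widest gap of the 6 genes. The raw counts were 4927, 7242 and 2925 at 80 DAG and 74376, 46727 and 58527 at 20 DAG. By count, a rank that also depends on transcript length, Glyma.11G221000 was between the 77th and the 253rd most abundant gene of an 80 DAG library and between the 11th and the 17th of a 20 DAG library. Its mean was 355 ± 211 CPM at 80 DAG and 5799 ± 2141 CPM at 20 DAG (SD, n = 3 each). The change on the log2 scale was −4.03, with a standard error of 0.60 (edgeR, adjusted p = 0.00167). Replicate 2 of 80 DAG was the highest library of its age, and without it the decrease was 24.5-fold in place of 16.3-fold.

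The Rca gene Glyma.18G036400 had 337, 808 and 219 CPM in the 80 DAG libraries, against 6911, 2991 and 5177 CPM in the 20 DAG libraries. Its 80 DAG libraries spread more than those of any other member, with the highest 3.69 times the lowest. It averaged 455 ± 312 CPM at 80 DAG and 5026 ± 1965 CPM at 20 DAG (SD, n = 3 each). This amounts to −3.47 on the log2 scale, with a standard error of 0.64 (edgeR, adjusted p = 0.00397). The value was −4.17 without replicate 2 of 80 DAG, a 1.63 times larger fold, and the adjusted p was then 0.00286.

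The remaining Rca genes had lower counts. Glyma.14G067000 had 56.4, 56.1 and 46.5 CPM in the 80 DAG libraries, against 487, 320 and 400.5 CPM in the 20 DAG libraries. It varied least between libraries of one age, with a coefficient of variation of 10.6% at 80 DAG and 20.7% at 20 DAG. Its mean was 53.0 ± 5.63 CPM at 80 DAG and 403 ± 83.3 CPM at 20 DAG (SD, n = 3 each). Its change of −2.92 on the log2 scale, with a standard error of 0.25, had the smallest adjusted p of the 6 genes (edgeR, 0.000189). Still, 961 of the tested genes had a smaller p.

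Glyma.02G249600, the Rca gene with the smallest decrease, had 148, 215 and 154 CPM in the 80 DAG libraries, against 1228, 580 and 859 CPM in the 20 DAG libraries. Its mean was 172 ± 36.9 CPM at 80 DAG and 889 ± 325 CPM at 20 DAG (SD, n = 3 each). On the log2 scale it changed by −2.37, with a standard error of 0.35 (edgeR, adjusted p = 0.00170). This estimate lay within its standard error of that of the RbcS gene Glyma.19G046800, whereas the other Rca genes had more negative estimates.

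**Figure D2:**
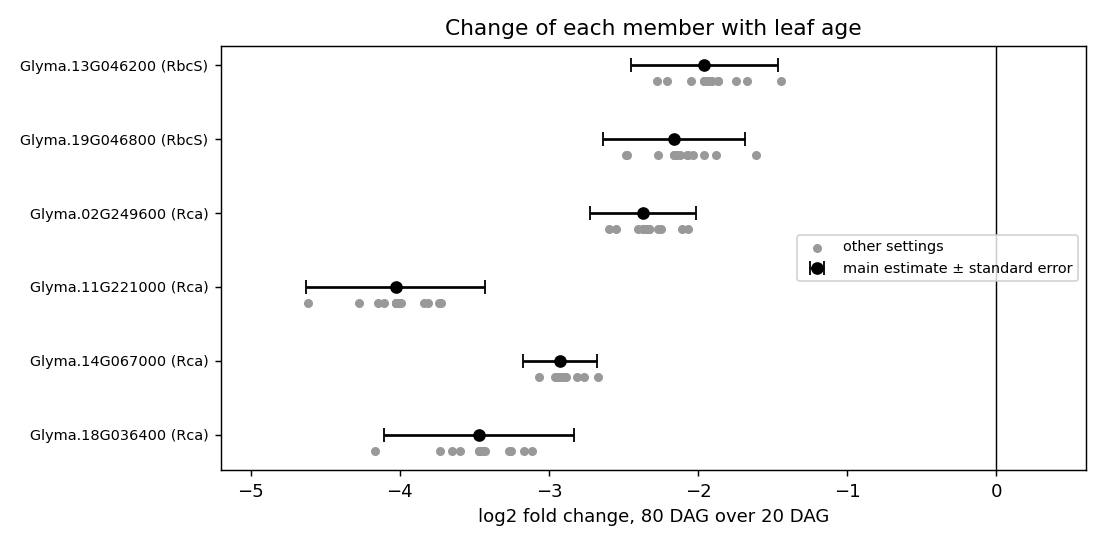
Log2 fold change of 80 DAG over 20 DAG for each gene. Black points and bars are the estimate of edgeR and its standard error, and grey points are the estimates under other scalings, tests, filters, a replicate block and with 1 library left out. Every point is below 0, from −1.44 for Glyma.13G046200 to −4.62 for Glyma.11G221000.

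The counts behind these values left little counting error. The smallest count of a member in any library was 671 (Glyma.14G067000, replicate 3 of 80 DAG, 95% Poisson interval 621 to 724). For the RbcS and Rca genes with the most counts, the half-width of the interval was at most 3.62% of the count. Intervals of this kind cover counting error only. The coefficients of variation between libraries of one age, 10.6% to 68.6%, were larger, so that the spread between replicates and not the depth set the precision. Near-identical paralogs can share reads, and the counting rules for such reads are not given in the sources used here, so that the split of counts between the 2 RbcS genes and between the 4 Rca genes is uncertain.

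In CPM, the libraries of one age that were high for one gene were mostly high for the others. Replicate 1 of 20 DAG was the highest and replicate 2 the lowest 20 DAG library for all 6 genes. Replicate 1 was 1.23 times (Glyma.14G067000) to 1.83 times (Glyma.19G046800) the geometric mean of its age. At 80 DAG, replicate 2 was the highest library for 5 genes, at 1.26 times (Glyma.02G249600) to 2.07 times (Glyma.18G036400) the mean. For Glyma.14G067000 replicates 1 and 2 of 80 DAG were at 1.07 and 1.06 times the mean. Over the 15 pairs of members, the correlation of the deviations from the age means ranged from r = 0.76 to r = 0.997. This is a description over 6 libraries, whose values share the scaling factor and composition of each library. The TMM factor was 0.773 in replicate 1 of 20 DAG, the lowest of the 6, and 0.936 in replicate 2 of 80 DAG, the lowest of its age. The 50 most abundant genes took 54.0% of the counts in replicate 2 of 80 DAG, and 41.7% and 42.3% in the other 80 DAG libraries. The part of these differences in the spread was not tested. As a plain share of library counts, without TMM factors, the RbcS sum was highest in the same libraries. It was 0.0828% in replicate 2 of 80 DAG and 0.325% in replicate 1 of 20 DAG. The share of Glyma.14G067000 was instead lowest in replicate 2 of 80 DAG, at 0.00524% against 0.00655% and 0.00543% in replicates 1 and 3. At 20 DAG it was 0.0375%, 0.0346% and 0.0373%. The other members had their highest 80 DAG share in replicate 2, by little for Glyma.02G249600 (0.0172%, 0.0201% and 0.0179%).

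**Figure D3:**
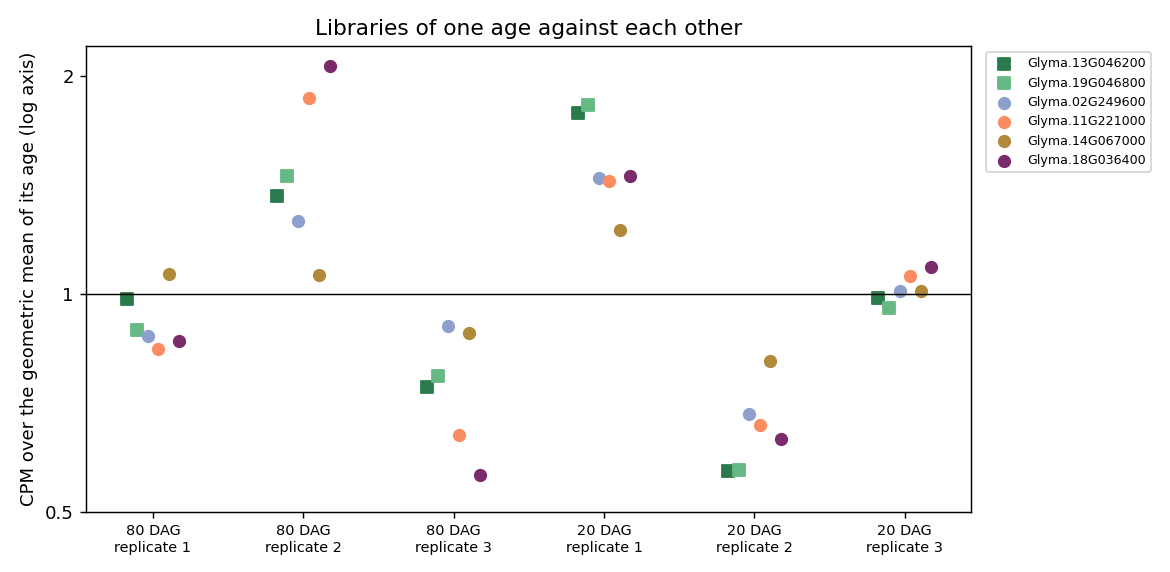
CPM of each RbcS gene (squares) and Rca gene (circles) in each library over the geometric mean of the 3 libraries of the same age (log axis). The members move together between libraries of one age, up to 2.07 times the mean in replicate 2 of 80 DAG and down to 0.562 times in replicate 3 of 80 DAG (both Glyma.18G036400).

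Summed over the members, RbcS and Rca took 0.167%, 0.239% and 0.129% of all counts in the 80 DAG libraries, against 1.60%, 0.958% and 1.36% in the 20 DAG libraries. The groups were separate by a wide margin. The RbcS genes accounted for 0.0705 ± 0.0135% of the counts at 80 DAG and 0.229 ± 0.0906% at 20 DAG, and the Rca genes for 0.108 ± 0.0436% at 80 DAG and 1.08 ± 0.238% at 20 DAG (SD, n = 3 each). Rca counts per RbcS count in the same library were 1.29, 1.89 and 1.30 at 80 DAG, against 3.92, 5.59 and 5.29 at 20 DAG. This ratio uses no scaling between libraries. It is a ratio of counts, so that its level depends on transcript lengths, and so can the size of its change, since the makeup of the Rca counts also differed between the ages. Its log2 value was 0.55 ± 0.32 at 80 DAG and 2.29 ± 0.28 at 20 DAG (SD, n = 3 each), a difference of −1.73 that exceeded the spread between replicates, with no overlap of the ages. The sum is carried by Glyma.11G221000 and Glyma.18G036400. For Glyma.02G249600 against Glyma.13G046200 the log2 ratio of RbcS to Rca counts was 1.74 ± 0.25 at 80 DAG and 1.27 ± 0.28 at 20 DAG, and the ages overlapped.

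The makeup of the Rca counts differed between the ages. The share of Glyma.11G221000 in the Rca counts was 33.1%, 35.6% and 32.6% at 80 DAG, against 47.9%, 48.3% and 47.6% at 20 DAG. The share of Glyma.02G249600 was 18.4%, 12.8% and 24.7% at 80 DAG, against 7.42%, 7.71% and 6.99% at 20 DAG. For these 2 genes the ages did not overlap (exact permutation test over 6 libraries, two-sided, p = 0.1 for each, the smallest that 3 libraries against 3 can give, and 0.2 after adjustment over the 4 genes). This test cannot pass 0.05 in the present design. The share of Glyma.18G036400 was 41.6%, 48.3% and 35.2% at 80 DAG, against 41.8%, 39.7% and 42.2% at 20 DAG (exact permutation test, p = 1). The share of Glyma.14G067000 was 6.98%, 3.35% and 7.48% at 80 DAG, against 2.94%, 4.26% and 3.26% at 20 DAG, with overlap (exact permutation test, p = 0.2). The 80 DAG shares spread more widely, and replicate 2 of 80 DAG had the lowest shares of Glyma.02G249600 and Glyma.14G067000 among the 80 DAG libraries.

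**Figure D4:**
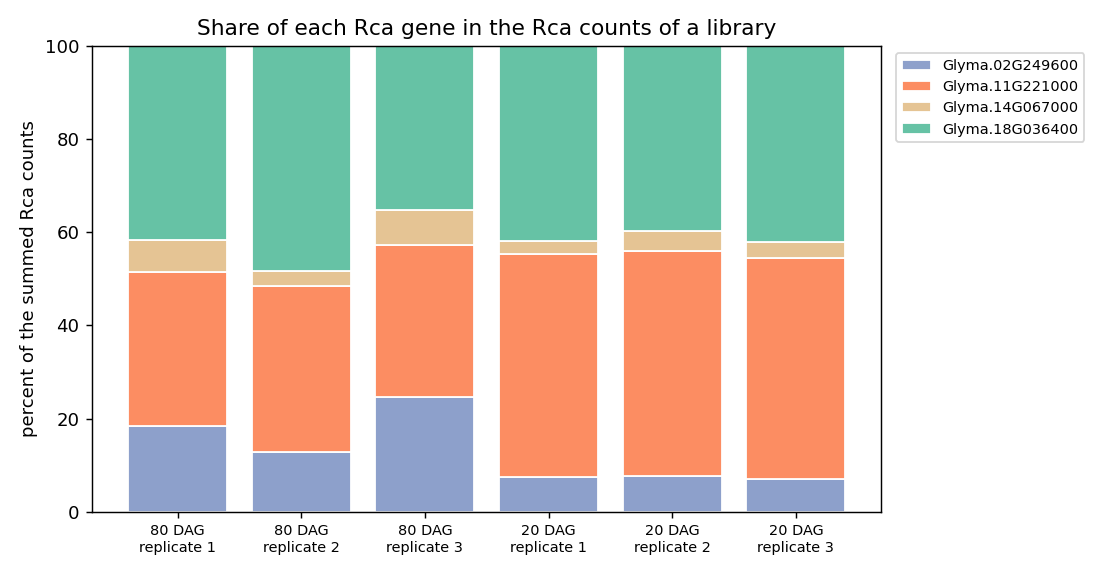
Percent of the summed Rca counts on each of the 4 Rca genes in each library. In the 80 DAG bars Glyma.11G221000 takes 32.6% to 35.6% and Glyma.02G249600 12.8% to 24.7%, and in the 20 DAG bars they take 47.6% to 48.3% and 6.99% to 7.71%.

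The makeup of the RbcS counts changed little. Glyma.13G046200 took 89.0%, 87.2% and 87.7% of the RbcS counts at 80 DAG, against 86.1%, 86.4% and 86.8% at 20 DAG. The ages did not overlap, but the means differed by only 1.56 percentage points (exact permutation test, two-sided, p = 0.1, the smallest possible). Of the 15 pairs among the 6 genes, 12 had count ratios that did not overlap between the ages. The largest change in log2 ratio, 2.27, was for Glyma.13G046200 against Glyma.11G221000. The pairs share genes and are not independent, and the share among pairs of other genes is not given here.

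Against all tested genes, whose median log2 fold change was −0.015, the members were in the lower tail. A lower log2 fold change than that of Glyma.11G221000 was found in 4.50% of the tested genes, and a lower one than that of Glyma.13G046200 in 12.2%. The share was 10.96% for Glyma.19G046800, 9.92% for Glyma.02G249600, 7.46% for Glyma.14G067000 and 5.85% for Glyma.18G036400.

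**Figure D5:**
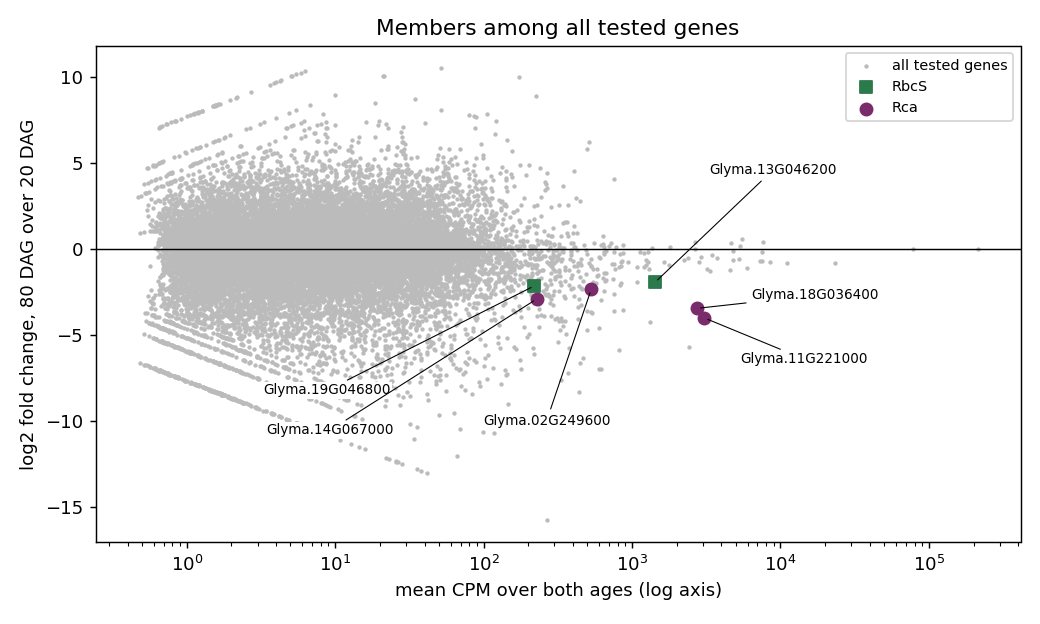
Log2 fold change of 80 DAG over 20 DAG against the mean CPM over both ages (log axis) for 30058 tested genes (grey), with the RbcS genes as squares and the Rca genes as circles. All 6 members lie below 0, from −1.96 for Glyma.13G046200 to −4.03 for Glyma.11G221000. The place of a gene along the CPM axis also depends on its transcript length.

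Genes other than the 6 members followed a profile of similar shape over the 6 libraries, although the size of the change could differ. Only the members were left out, so that further RbcS or Rca genes could be among them. Of 1877 tested genes with a mean of at least 50 CPM, 34 had a Pearson correlation of at least 0.99 with Glyma.13G046200 on the log2(CPM + 1) scale, and 75 had one with Glyma.11G221000. The 3 most similar genes had r between 0.9988 and 0.9996 for Glyma.13G046200, and r = 0.998 for Glyma.11G221000. The gene closest to Glyma.13G046200 was Glyma.18G114900, with 110 ± 34.6 CPM at 80 DAG and 458 ± 254 CPM at 20 DAG, and the gene closest to Glyma.11G221000 was Glyma.10G241000, with 23.2 ± 8.96 CPM at 80 DAG and 158 ± 48.1 CPM at 20 DAG (SD, n = 3 each). These correlations take in both the difference between the ages and the spread within an age, which were not separated. A correlation does not measure the size of a change. The log2 fold change was −2.05 for Glyma.18G114900 and −2.77 for Glyma.10G241000, against −1.96 and −4.03 for the members they resembled. The identifiers of these genes were not paired with names in the sources used here.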

How the data were processed

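The authors depleted ribosomal RNA from total leaf RNA, and made stranded TruSeq libraries for paired-end sequencing. The authors deposited raw counts per gene for the Wm82.a2.v1 gene models, without normalization, and the submitters' processing notes name CASAVA 1.7, Bowtie2 and DESeq2 without their roles. The counting program and its strand setting are not given in the sources used here. Columns were matched to samples by title, and 0 columns had no sample.

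Totals per library were between 10758425 and 15883253 counts. The ages were compared with edgeR 4.0.16 (R 4.3.3), using TMM factors, the default expression filter and the quasi-likelihood F test. Benjamini-Hochberg adjustment was over 30058 genes, at an adjusted p under 0.05 with no fold minimum. The study used DESeq2 with the same threshold and named no fold minimum. It also applied independent hypothesis weighting, which was not used here, so its adjusted p is not the same measure. Standard errors are the absolute log2 fold change over the square root of F. Shares within a family were compared with exact permutation tests (scipy 1.17.1). The fit was also run on simulated counts with 200 changed genes, against 14758 genes called in the data. The outcome of that run is not used here. With 3 libraries against 3, p-values measure the spread between these samples, described as biological triplicates. No library was a copy of another, since replicates differed beyond counting noise (chi-square per degree of freedom 7.22 to 45.3).

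The members and lists were chosen with earlier results of these data known. The rule named the 6 members and, for the RbcS and the Rca gene with the highest mean CPM, the 3 most correlated genes, of which 1 each is given. Lists of Calvin cycle, Rubisco assembly, photorespiration, light-harvesting and tissue marker genes were to be drawn from RefSeq descriptions, and so were protein and promoter sequences. The RefSeq table has no descriptions or Glyma identifiers, so these were not evaluated. Alternatives were DESeq2's size factors, library size alone, scaling without the 50 most abundant genes, DESeq2 1.42.0, limma-voom (limma 3.58.1), other filters and thresholds, a replicate block and each library left out. Scaling to the control gene UKN-2 was chosen after seeing the data.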

Additional observations from a re-analysis of the deposited data

How the results depend on the processing

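All 6 genes were lower at 80 DAG under each of the alternatives tried. In the 14 fits that gave an adjusted p, it stayed under 0.05 for Glyma.19G046800 and the 4 Rca genes. Glyma.13G046200 had a log2 fold change of −1.87 with the replicate block (adjusted p = 0.0671), and its −1.96 did not pass an adjusted p of 0.01. With 1 library left out its log2 fold change ranged from −2.27 to −1.44, and the number of genes called from 5 to 6. With the replicate block 5 of the 6 genes and 11702 of all tested genes were called, against 14758 without it. Libraries with the same replicate number did not deviate together (correlations across genes −0.32 to 0.067), so that the numbers were not taken as pairs.

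Scaling by library size alone shifted the median over all tested genes to 0.21 on the log2 scale, against −0.015 with TMM, and those of the members to between −3.81 and −1.67. It also changed the split of all called genes, of which 6063 of 13284 were lower at 80 DAG, against 7812 of 14758 with TMM. Relative to UKN-2 (Glyma.06G041800), which had only 9 to 22 counts in a library, every member had a more negative log2 change than with TMM. The values ranged from −2.24 for Glyma.13G046200 to −4.50 for Glyma.11G221000, with −3.30 for Glyma.14G067000. UKN-2 itself had a log2 fold change of 0.38, with a standard error of 0.29 (edgeR). The log2 ratio of Rca to RbcS changed by −1.73, by −1.92 to −1.63 with 1 library left out, and by −2.27 between the members with the highest counts. The share of Glyma.18G036400 in the Rca counts differed by 0.479 percentage points between the ages, and by −2.80 without replicate 2 of 80 DAG, −0.267 without replicate 2 of 20 DAG and at most 3.71 with another library left out. The other shares kept their direction, and 1 library left out could not give a p below 0.2. The alternatives for the pathway lists were not run, as the lists could not be drawn. The cause of these changes was not tested.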

Other observations

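At each age, the library highest in most RbcS and Rca genes was the lowest in a pair of NAC genes that the study relates to senescence, an observation made after the values were seen. GmNAC030 (Glyma.05G195000), a NAC transcription factor, had 231, 30.6 and 184 CPM in replicates 1, 2 and 3 of 80 DAG. GmNAC081 (Glyma.12G022700), a further NAC factor, had 95.9, 17.7 and 65.0 CPM in the same libraries. Replicate 2 was the lowest 80 DAG library for both NAC genes. It was the highest for both RbcS genes and for the Rca genes Glyma.02G249600, Glyma.11G221000 and Glyma.18G036400. The 4 Rca members together had 809, 1675 and 622 CPM in replicates 1, 2 and 3 of 80 DAG. At 20 DAG, replicate 1 had the lowest GmNAC030, with 1.81 CPM against 7.39 and 8.78 CPM in replicates 2 and 3, and the lowest GmNAC081, with 6.39 CPM against 10.3 and 11.7 CPM. The same library had the highest level of all 6 RbcS and Rca genes. The study reports many further NAC genes as changed at senescence, in both directions, and those were not examined here. Replicate 2 of 80 DAG and replicate 1 of 20 DAG had deviations from their age means that correlated at r = 0.35 across all tested genes. This was the highest correlation between a library of 80 DAG and a library of 20 DAG. With 3 libraries at each age, the observation on the NAC genes is given as values only.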
